A study of Mus musculus with 6 samples.

Results

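Expression of 10 genes of cytokine signalling was described: the transcription factors Stat3, Stat4, Stat5a, Stat5b and Stat6, the feedback inhibitors Socs1, Socs2, Socs3 and Cish, and Il12rb2, a chain of the interleukin-12 receptor. They were taken by symbol from 22180 genes, using probe sets whose annotation names a single gene. Where a gene had several, its probe set was chosen by the mean level across all 6 arrays, the highest being kept. This was a close choice for Cish, whose kept probe set had a mean level of 5.64 (log2) and whose other probe set had 5.52. Il12rb2 was selected on its measured decrease with FSL-1, so its levels and differences are described here with no test.

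All cells were macrophages grown from the bone marrow of C57Bl/6 mice for 5 days in 20 ng/ml M-CSF, a macrophage growth factor. The M-CSF group (2 arrays) then spent 6 days in M-CSF at 50 ng/ml. The FSL-1 group (2 arrays) received 20 ng/ml FSL-1, a lipopeptide agonist of TLR2 and TLR6, for the same 6 days, and the design calls these cells multinucleated giant cells. The FSL-1 + nutlin-3a group (2 arrays) received 20 ng/ml FSL-1 and 10 µM nutlin-3a, also for 6 days. Nutlin-3a frees p53 from its inhibitor Mdm2. Whether the FSL-1 groups also received M-CSF is not stated in the labels, which name no vehicle control. RNA came from sorted cells, and the sources used here do not describe the gate. They also do not say that replicates came from different cultures or mice, so every p-value rests on a spread between arrays that may be technical.

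Cytokines of this class bind receptors that carry Janus kinases (JAKs). The kinases phosphorylate the receptor and then STAT proteins, which pair, enter the nucleus and bind palindromic DNA sites. Cish and the Socs genes are classic targets of STATs, and their products bind receptors or JAKs and so shut the pathway down. Interleukin-12, made by macrophages and dendritic cells, signals through Il12rb1 and Il12rb2 to Stat4, mainly in T cells and natural killer cells. The arrays measure RNA, and neither phosphorylation of a STAT nor its binding to DNA was measured.

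The promoters of Cish, Socs3, Il12rb2 and Stat4 are shown. Stat4 and Socs3 passed the test below, Il12rb2 is described without a test, and Cish changed only at the probe set that was not kept. The promoters of Cish, Socs3 and Il12rb2 hold the palindrome bound by most STATs, TTCNNNGAA. The sequences are RefSeq promoters of GRCm38.p6, from 250 bases before the annotated start to 30 bases from it, written 5′ to 3′ on the gene's strand, with each palindrome in capitals. They lie at chr9:107296409-107296688 (plus strand) for Cish, chr11:117969337-117969616 (minus strand) for Socs3, chr6:67376159-67376438 (minus strand) for Il12rb2 and chr1:51986898-51987177 (plus strand) for Stat4, which is the first of 2 starts listed for that gene.
Cish: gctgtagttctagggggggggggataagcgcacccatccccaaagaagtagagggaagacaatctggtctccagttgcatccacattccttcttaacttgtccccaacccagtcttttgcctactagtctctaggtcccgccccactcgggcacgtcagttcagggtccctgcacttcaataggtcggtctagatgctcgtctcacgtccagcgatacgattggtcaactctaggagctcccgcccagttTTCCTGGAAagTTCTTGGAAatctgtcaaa
Socs3: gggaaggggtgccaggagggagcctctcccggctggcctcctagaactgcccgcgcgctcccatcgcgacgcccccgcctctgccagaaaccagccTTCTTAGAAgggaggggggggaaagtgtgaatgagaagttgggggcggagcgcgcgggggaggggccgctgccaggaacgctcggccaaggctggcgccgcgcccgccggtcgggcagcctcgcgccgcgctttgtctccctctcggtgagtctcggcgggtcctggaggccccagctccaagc
Il12rb2: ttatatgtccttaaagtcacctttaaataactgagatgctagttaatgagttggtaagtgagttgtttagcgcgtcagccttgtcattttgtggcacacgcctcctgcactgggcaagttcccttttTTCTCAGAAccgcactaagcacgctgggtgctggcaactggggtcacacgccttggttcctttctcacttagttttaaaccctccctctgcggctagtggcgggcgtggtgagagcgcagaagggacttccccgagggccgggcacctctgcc
Stat4: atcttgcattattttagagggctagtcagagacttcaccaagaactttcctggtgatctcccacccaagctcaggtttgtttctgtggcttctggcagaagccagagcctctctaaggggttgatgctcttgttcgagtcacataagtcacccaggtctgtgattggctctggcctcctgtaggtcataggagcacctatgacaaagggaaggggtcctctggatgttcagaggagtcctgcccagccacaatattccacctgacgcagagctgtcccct

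Promoters were found for 9 of the 10 genes, 12 promoters in all, and the search covered 300 bases of each, from 250 before the start to 50 after it. TTCNNNGAA reads the same on both strands. It was present in 3 of the 9 genes, against 9.55% of 27025 genes with a promoter. Cish held 2 copies, TTCCTGGAA beginning at the annotated start itself and TTCTTGGAA 11 bases further on. Socs3 held TTCTTAGAA, beginning 154 bases before the start, and Il12rb2 held TTCTCAGAA, 123 bases before it. The same palindrome with 1 more base between its arms, preferred by Stat6, was in 0 of the 9 genes and in 8.01% of all genes. A match is a description of the sequence and does not show that a STAT binds there.

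With FSL-1, 2 of the 9 genes tested against M-CSF rose, Stat4 and Socs3, and 0 fell. Over all genes 6.86% passed the same test (3.91% higher and 2.95% lower), which was limma at a Benjamini-Hochberg adjusted p under 0.05 over 22180 genes. With nutlin-3a added, Stat4 fell against FSL-1, 1 of 9 genes, where 6.5% of all genes passed (2.38% higher and 4.12% lower). With both agents against M-CSF, 1 of 9 genes passed, Socs3, and 9.51% of all genes did (4.58% higher and 4.94% lower). These shares depend on level. Where only genes above the median of all genes were tested, 8 of the 9 remained. In the order of the comparisons, 2, 1 and 3 of these 8 were called, beside 24.2%, 23.3% and 29.7% of the genes so tested. The median log2 change of the tested genes was 0.11 with FSL-1, -0.03 with nutlin-3a and 0.05 with both, beside -0.01, 0.02 and 0.02 over all genes. The 3 comparisons share arrays with each other, so their values are not independent.

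**Figure D1:**
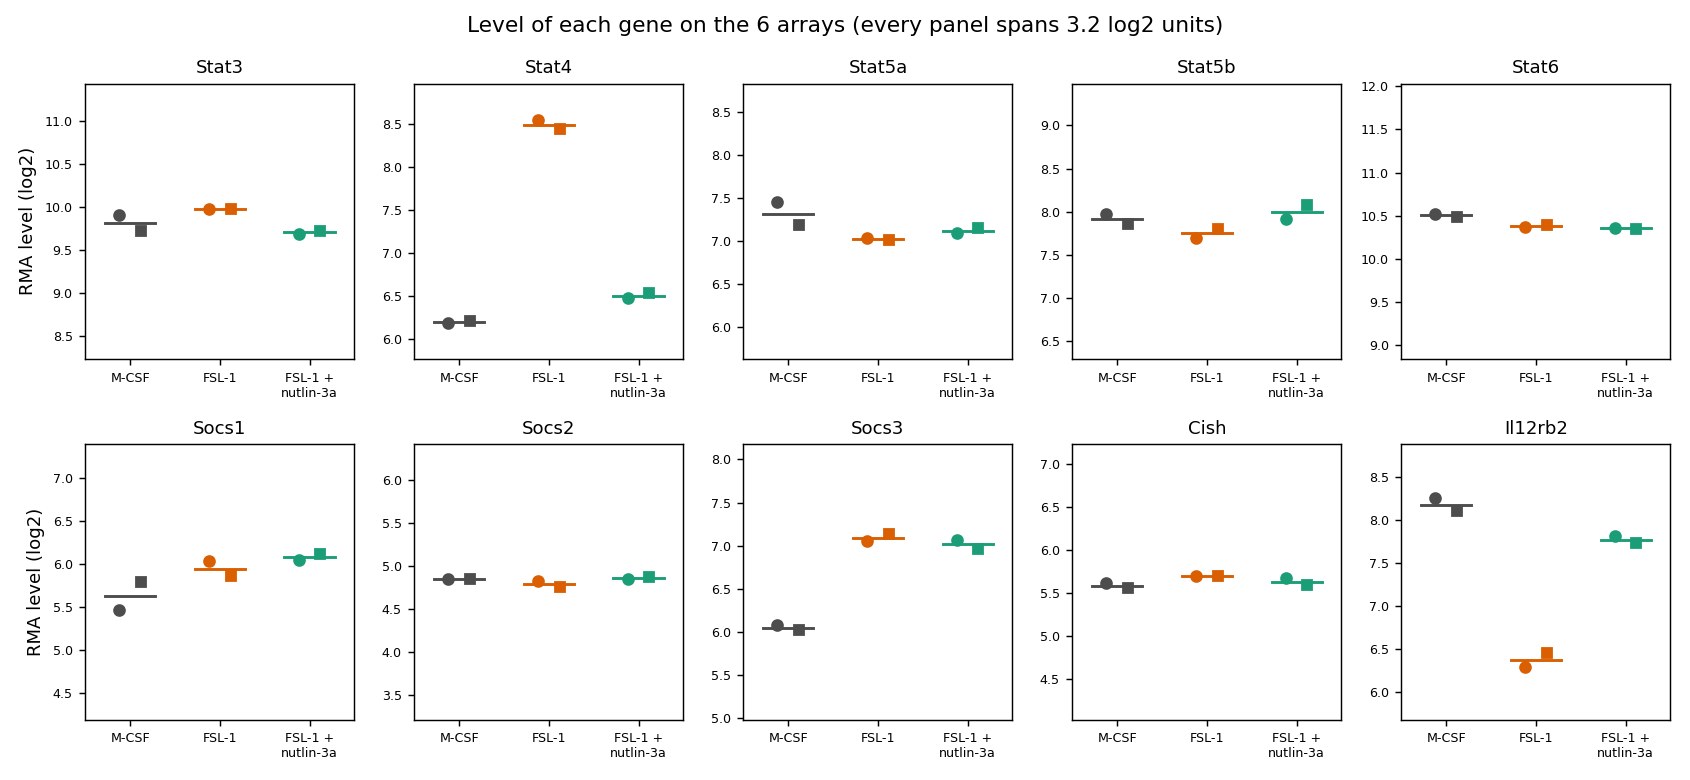
RMA level (log2) of each gene on the 6 arrays, with circles for replicate 1, squares for replicate 2 and a line at each group mean; every panel spans 3.2 log2 units. Stat4 stood at 8.44 and 8.55 in FSL-1 and at 6.54 or lower elsewhere, Il12rb2 was lowest in FSL-1, and Socs3 was high in both FSL-1 groups.

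Stat4, the factor that carries interleukin-12 signals, had levels of 6.19 and 6.21 (log2) in M-CSF, 8.55 and 8.44 in FSL-1, and 6.48 and 6.54 in FSL-1 + nutlin-3a. Both FSL-1 arrays were far above the other 4, and the other 2 groups did not overlap but lay close together. Stat4 rose 4.91-fold with FSL-1, from 6.20 ± 0.01 to 8.50 ± 0.08 (log2, mean ± SD, n = 2 each; log2 change 2.29, SE 0.113, limma adjusted p = 3.32e-05, probe set 17212724). Among all genes this change stood at percentile 99.8. It fell by 1.99 on the log2 scale with nutlin-3a, to 6.51 ± 0.04 (SE 0.113, limma adjusted p = 0.000206), at percentile 0.205. Against M-CSF the level with both agents was 0.31 higher (log2), with a 95% interval of 0.05 to 0.57 and an adjusted p of 0.143, so these groups were not separated by the test. The order was therefore FSL-1 first, with FSL-1 + nutlin-3a and M-CSF not told apart.

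The rise and the fall of Stat4 both use the FSL-1 arrays. With a different FSL-1 array in each, the rise was 2.35 (log2) from replicate 1 alone and the fall was -1.93 from replicate 2 alone. With the arrays exchanged, the values were 2.24 and -2.04. Both calls passed in all 6 fits that left out 1 array, with limma adjusted p of at most 0.00104 for the rise and 0.00404 for the fall.

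Il12rb2, the signalling chain that recruits Stat4, ran the other way. Its levels were 8.26 and 8.10 (log2) in M-CSF, 6.30 and 6.45 in FSL-1, and 7.81 and 7.73 in FSL-1 + nutlin-3a. The 3 groups did not overlap: M-CSF was highest, FSL-1 + nutlin-3a was intermediate and FSL-1 was lowest. The group mean was 8.18 ± 0.11 (log2, SD, n = 2) with M-CSF and 6.38 ± 0.11 with FSL-1 at probe set 17467323. The difference of -1.81 is a description, and ranked 8 from the lowest among 22180 genes. With nutlin-3a Il12rb2 was 2.63-fold higher than with FSL-1, at 7.77 ± 0.05 (log2 difference 1.397). This difference starts from the FSL-1 arrays on which the gene was selected, so it too is a description. Measured against FSL-1 replicate 2 alone it was 1.32, and against replicate 1 alone it was 1.47. With both agents Il12rb2 was 0.41 lower (log2) than in M-CSF.

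The other measured genes of the interleukin-12 axis did not pass with FSL-1. Il12rb1, the partner chain of Il12rb2, had levels of 5.24, 5.50 and 5.44 (log2 group means in the order M-CSF, FSL-1, FSL-1 + nutlin-3a), close to the median of all genes, 5.51, and its change with FSL-1 was 0.26 (adjusted p = 0.407). Il12a and Il12b, the ligand's subunits, had low FSL-1 means, 4.49 and 4.88, and changed by 0.08 and -0.02 (limma adjusted p = 0.861 and 0.953). Of 8 measured genes that interleukin-12 and Stat4 are known to induce in lymphocytes, 0 passed with FSL-1 (limma, and 0 had an unadjusted p under 0.05), and the median log2 change was -0.04. The interferon gamma gene Ifng was among them with a log2 change of -0.16 (adjusted p = 0.759), and Tbx21, the T-bet factor, with -0.03 (adjusted p = 0.939). Gzmb, Il18r1, Ifng, Il18rap and Prf1 had FSL-1 means of 3.86, 4.28, 4.59, 4.75 and 5.31, below the median of all genes. At such levels a change could be missed. Those of Tbx21, Hlx and Furin were 5.88, 8.57 and 8.98. With nutlin-3a 1 of the 8 rose, the protease Furin (log2 change 0.48, adjusted p = 0.0445), and it passed in 0 of 6 fits with 1 array left out.

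Stat4 and Il12rb2 are best known from lymphocytes, and RNA of bulk cells cannot tell fewer cells of a type from less RNA per cell. All 8 measured macrophage markers lay above the median of all genes, led by Cd68 at 13.18 (log2 mean over the arrays), but some changed. With FSL-1 Itgam (0.74) and Adgre1 (0.56) rose and Csf1r, the M-CSF receptor, fell (-0.87), passing in 3, 2 and 3 of 6 fits with 1 array left out. With nutlin-3a Fcgr1 (-1.58) and Cd14 (-1.12) fell, both in 6 of 6 fits, as Stat4 did. The part of these changes in the Stat4 result was not tested. The summed level of the T cell markers was 9.54 to 9.61 (log2) in M-CSF, 8.79 to 8.83 in FSL-1 and 8.53 to 8.58 in FSL-1 + nutlin-3a. This order came from Cd28, with group means of 9.08, 7.76 and 7.01. The sum of the other 8 markers was 7.69 to 7.897, 7.77 to 7.95 and 7.91 to 7.99. Of the 9 measured, 7 lay below the median of all genes, and the T cell receptor chains Cd3d, Cd3e and Cd3g had FSL-1 means of 5.01, 4.25 and 3.82, where probe sets with no gene name had a median of 4.25. The summed level of the 9 natural killer cell markers was 7.87 to 8.001 in M-CSF, 7.84 to 7.96 in FSL-1 and 7.94 to 8.01 in FSL-1 + nutlin-3a, and 0 of them passed in any comparison (limma, with unadjusted p under 0.05 for 0, 1 and 0 markers). The 6 B cell markers summed to 7.03 to 7.07, 7.23 to 7.32 and 7.19 to 7.28, and Cd79b was called with FSL-1 (0.56, passing in 0 of 6 fits with 1 array left out).

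For 3 other cell types the summed marker level was highest in FSL-1, as Stat4 was. This also held for the macrophage markers, by a small margin. The 8 macrophage markers summed to 14.87 to 14.94 (log2), 14.97 to 14.98 and 14.94 to 14.96 in the order M-CSF, FSL-1, FSL-1 + nutlin-3a. The B cell sums were higher in both FSL-1 groups than in M-CSF, and those 2 groups overlapped. The sum of 8 dendritic cell markers was 9.25 to 9.38 (log2) in M-CSF, 9.56 to 9.603 in FSL-1 and 9.37 to 9.45 in FSL-1 + nutlin-3a. Cd209a made most of it and did not pass with FSL-1 (0.33, adjusted p = 0.176), the median change of the 8 was -0.02, and Ccr7 was the only 1 called (0.65, adjusted p = 0.0208, passing in 2 of 6 fits). The 9 neutrophil markers summed to 8.02 to 8.09, 9.34 to 9.39 and 8.95 to 9.03. Mmp8 (2.51) and S100a8 (2.403) rose with FSL-1 in 6 of 6 fits and Cxcr2 (0.598) in 1 of 6, while S100a9 (0.43), Camp (0.16), Ltf (0.05), Ngp (0.11), Mpo (0.09) and Elane (-0.45) did not pass. The 8 fibroblast markers summed to 8.39 to 8.48, 8.596 to 8.78 and 8.32 to 8.36, with 0 called with FSL-1 (limma, 2 at an unadjusted p under 0.05). With nutlin-3a Mmp8 (-0.62, limma adjusted p = 0.0339) and Col1a2 (-0.80, adjusted p = 0.0292) were called lower. Neither call held in every fit with 1 array left out, and 0 markers of these 3 cell types were called higher. The part of these cell types in the Stat4 result was not tested.

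Stat3, which serves the interleukin-6 and interleukin-10 receptors, had 9.91 and 9.72 (log2) in M-CSF, 9.98 and 9.98 in FSL-1, and 9.69 and 9.73 in FSL-1 + nutlin-3a. The FSL-1 arrays were the highest, by a small margin. The log2 change was 0.16 with FSL-1 (95% interval -0.11 to 0.44, limma adjusted p = 0.517) and -0.27 with nutlin-3a (-0.55 to 0.01, adjusted p = 0.247). Stat6, the factor of interleukin-4 and interleukin-13, varied least among the STATs. It had 10.52 and 10.49 in M-CSF, 10.37 and 10.39 in FSL-1, and 10.35 and 10.35 in FSL-1 + nutlin-3a. Both FSL-1 groups were slightly below M-CSF, with log2 changes of -0.12 (95% interval -0.37 to 0.13, adjusted p = 0.613) and -0.15 (-0.40 to 0.10, adjusted p = 0.46).

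Stat5a and Stat5b are close relatives that answer GM-CSF and interleukin-3 in myeloid cells, and with Stat3 they are neighbours on chromosome 11. How far their probes tell the related transcripts apart was not tested. Stat5a had 7.45 and 7.18 (log2) in M-CSF, 7.04 and 7.01 in FSL-1, and 7.10 and 7.15 in FSL-1 + nutlin-3a. M-CSF was highest without overlap, but its own arrays differed by nearly as much as the groups, and the change with FSL-1 was -0.29 (95% interval -0.59 to 0.00, adjusted p = 0.24). Stat5b had 7.97 and 7.85 in M-CSF, 7.69 and 7.80 in FSL-1, and 7.92 and 8.08 in FSL-1 + nutlin-3a. Its changes were -0.16 with FSL-1 (adjusted p = 0.524) and 0.25 with nutlin-3a (95% interval -0.03 to 0.54, adjusted p = 0.291). For these 4 STATs the 95% intervals of all 3 comparisons stayed between -0.59 and 0.54 on the log2 scale, so a change of 1 log2 unit lay outside them.

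**Figure D2:**
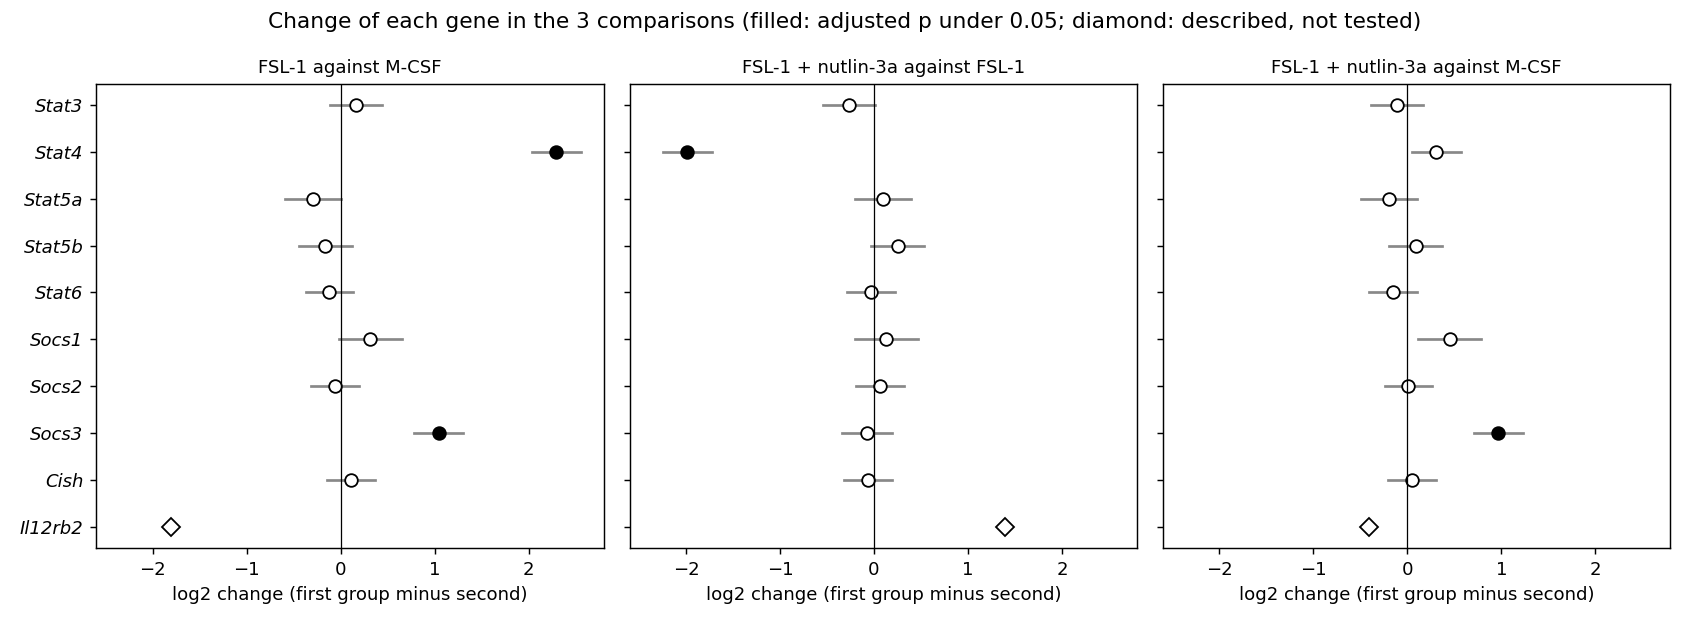
Log2 change of each gene in the 3 comparisons with its 95% interval from the limma fit (n = 2 arrays per group); filled circles passed an adjusted p of 0.05 and the diamonds of Il12rb2 were described only. Stat4 and Il12rb2 took opposite signs in the first 2 panels (2.29 and -1.81, then -1.99 and 1.397), while Socs3 was raised in both comparisons with M-CSF. Il12rb2 was selected on its decrease with FSL-1, and both of those panels use the FSL-1 arrays.

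Socs3, which blocks signalling from the interleukin-6 receptor chain Il6st to Stat3, had 6.08 and 6.02 (log2) in M-CSF, 7.05 and 7.13 in FSL-1, and 7.07 and 6.96 in FSL-1 + nutlin-3a. All 4 arrays with FSL-1 were about 1 log2 unit above both M-CSF arrays, and the 2 FSL-1 groups overlapped. Socs3 rose 2.06-fold with FSL-1 (from 6.05 ± 0.04 to 7.09 ± 0.06, n = 2 each, log2 change 1.04, SE 0.115, limma adjusted p = 0.00191, probe set 17272619). Against M-CSF it rose 1.96-fold with both agents (log2 change 0.97, adjusted p = 0.00171), and the difference between the FSL-1 groups was -0.07 (95% interval -0.34 to 0.19, adjusted p = 0.781). Both calls passed in all 6 fits with 1 array left out. The other probe set of Socs3, 17547600, was dimmer, with 4.11 and 4.06 in M-CSF, 4.70 and 4.60 in FSL-1, and 4.56 and 4.44 in FSL-1 + nutlin-3a. It had the same order and smaller changes, 0.56 with FSL-1 (adjusted p = 0.0298 over 23521 probe sets, lost without any 1 of the 4 compared arrays) and 0.41 with both agents (adjusted p = 0.0688).

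Socs1, an inhibitor of the JAK kinases themselves, had 5.47 and 5.80 (log2) in M-CSF, 6.04 and 5.86 in FSL-1, and 6.05 and 6.12 in FSL-1 + nutlin-3a. The group means stood in that order, lowest first, and the M-CSF arrays differed about as much as the groups. The change was 0.32 with FSL-1 (95% interval -0.02 to 0.65, limma adjusted p = 0.266) and 0.45 with both agents (0.11 to 0.78, adjusted p = 0.101), and neither passed. Socs2, known for restraining growth hormone signalling, was below the median of all genes on every array, at 4.85 and 4.85 in M-CSF, 4.83 and 4.76 in FSL-1, and 4.85 and 4.87 in FSL-1 + nutlin-3a. Its 3 changes lay between -0.06 and 0.07. Its other probe set, 17274184, was dimmer still (3.44 to 4.42 on the 6 arrays) and its groups overlapped in every comparison.

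Cish, which competes with Stat5 for receptor docking sites and is a standard readout of Stat5 activity, gave different results at its 2 probe sets. The kept probe set, 17530881, had 5.62 and 5.56 (log2) in M-CSF, 5.70 and 5.70 in FSL-1, and 5.67 and 5.597 in FSL-1 + nutlin-3a. These values hardly differed, with changes of 0.11 with FSL-1 (95% interval -0.15 to 0.37, limma adjusted p = 0.668) and -0.06 with nutlin-3a (adjusted p = 0.812). The other probe set, 17521300, had 5.36 and 5.20 in M-CSF, 6.17 and 6.05 in FSL-1, and 5.23 and 5.12 in FSL-1 + nutlin-3a. Here both FSL-1 arrays stood above the other 4, as they did for Stat4. The log2 change was 0.83 with FSL-1 (SE 0.123, limma adjusted p = 0.0082 over 23521 probe sets) and -0.94 with nutlin-3a (adjusted p = 0.00543), and with both agents it was -0.11 against M-CSF (adjusted p = 0.67). The first call was lost without FSL-1 replicate 1 (adjusted p = 0.0779) or FSL-1 replicate 2 (adjusted p = 0.0501), and the second without FSL-1 replicate 1 (adjusted p = 0.0588).

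The position of these probe sets in the platform's numbering differed. Cish is on the plus strand of chromosome 9 in GRCm38.p6. Of the 40 single-gene probe sets nearest in number to 17521300, 33 had a strand in the promoter table and 31 named plus-strand genes of chromosome 9. For the kept probe set 17530881, 32 had a strand and 31 named minus-strand genes of that chromosome. For each of the 7 genes with a single probe set, most neighbours named the gene's own chromosome and strand. The probe sequences are not used here, so which probe set reports the Cish transcript was not tested, and a statement that Cish did not change would rest on the probe set chosen. For the other probe set of Socs3, 17547600, 26 neighbours had a strand and 8 named minus-strand genes of chromosome 11, where Socs3 lies. For the kept probe set of Socs3 all 26 did. The other probe set of Socs2 lay among genes of chromosome 12, while the kept probe set lay among genes of chromosome 10. Socs2 itself has no position in the promoter table.

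**Figure D3:**
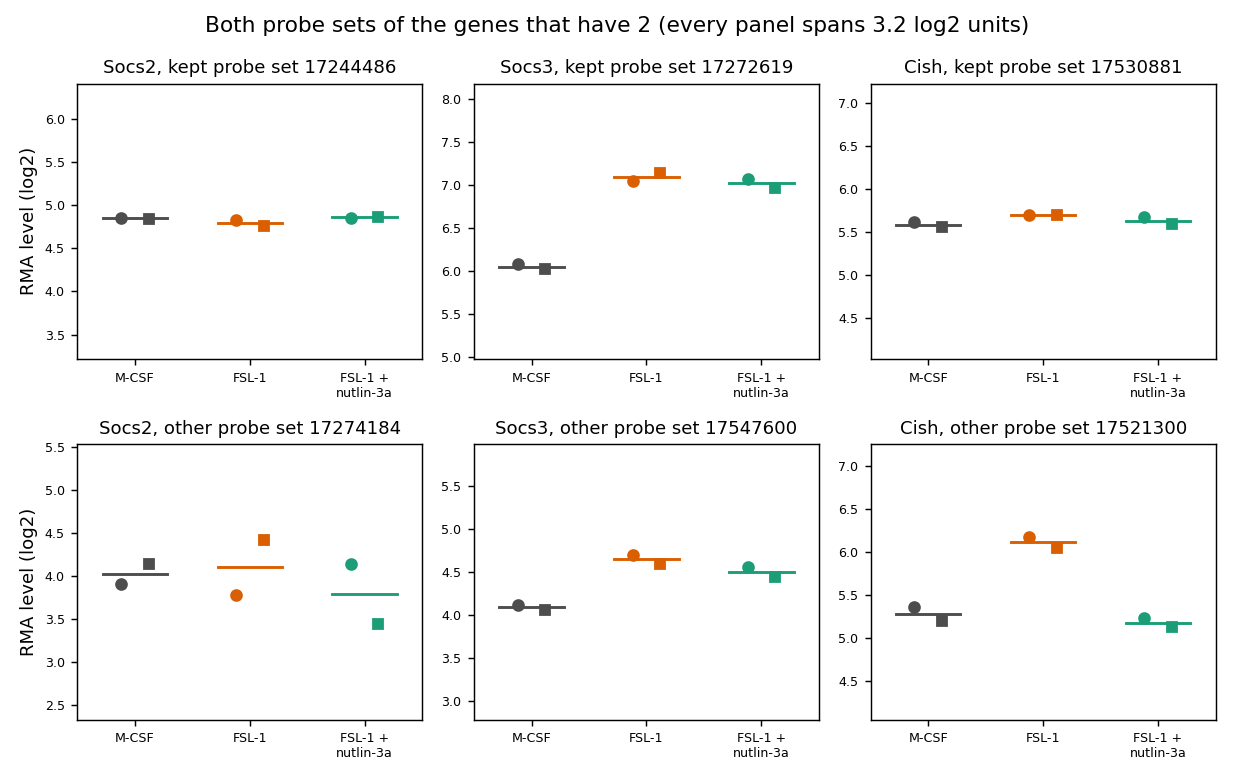
RMA level (log2) on the 6 arrays for both probe sets of Socs2, Socs3 and Cish, with circles for replicate 1, squares for replicate 2 and lines at the group means; every panel spans 3.2 log2 units. The other Cish probe set stood at 6.05 and 6.17 in FSL-1 against 5.36 or less elsewhere, while the kept one ranged from 5.56 to 5.70.

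Small differences were common on these arrays. In the FSL-1 comparison the 2 arrays of each group did not overlap in 9 of the 9 tested genes, 5 higher and 4 lower, where 50.2% of all genes did not overlap (24.6% higher and 25.6% lower). With nutlin-3a this held for 8 of 9 genes, 4 higher and 4 lower, and for 50.9% of all genes (27.2% higher and 23.7% lower). With both agents against M-CSF it held for 5 of 9, 3 higher and 2 lower, and for 51.5% of all genes (27.3% higher and 24.2% lower). Of the 9 in the first comparison, 7 did not pass the test.

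Of the measured JAK kinases and Stat2, 0 passed. Jak1 had a log2 change of -0.22 with FSL-1 (adjusted p = 0.379), Jak2 0.09 (adjusted p = 0.803) and Tyk2, a kinase of the interferon and interleukin-12 receptors, -0.44 (adjusted p = 0.0673). Stat2, the interferon factor, had 0.17 (adjusted p = 0.572). These 4 genes did not pass in any of the 3 comparisons (limma, 1 kinase at an unadjusted p under 0.05 with FSL-1).

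The following list counts are to be read against the 6.86% of all genes called with FSL-1 and the 6.5% called with nutlin-3a. Where only genes above the median of all genes were tested, 24.2% and 23.3% were called, and 29.7% with both agents against M-CSF. The lists were not counted in that setting, and they were chosen with earlier results of these data known. Whether a list exceeds the share of genes at like levels was not tested. Of 23 cytokine receptor genes, 3 rose and 3 fell with FSL-1 (26.1%, median log2 change 0.15, and 1 to 4 rose and 2 or 3 fell when 1 array was left out). Il6ra, the interleukin-6 receptor, fell by 1.64 (adjusted p = 0.000932), Lifr, the LIF receptor, fell by 1.302 (adjusted p = 0.00311), and Il6st, the chain shared by both, by 0.91 (adjusted p = 0.00564, lost without FSL-1 replicate 1). Il7r, the interleukin-7 receptor, rose by 1.44 (adjusted p = 0.000499), as did Il21r (0.94) and Il23r (0.64), which passed in 3 and 2 of the 6 fits with 1 array left out. With nutlin-3a 2 rose and 1 fell of the 23 (13%): Il13ra1 (0.94), Csf2rb2 (1.13) and Il23r (-0.62), which passed in 5, 3 and 1 of the 6 fits with 1 array left out. Of 19 ligands, 2 rose and 0 fell with FSL-1 (10.5%), oncostatin M (Osm, 0.89, adjusted p = 0.00413) and Ebi3 (0.62, adjusted p = 0.0221, passing in 2 of 6 fits). With nutlin-3a 1 ligand fell (5.26%), Osm (-0.52, adjusted p = 0.0393, passing in 0 of 6 fits).

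Of 16 other inhibitors of the pathway, 1 rose and 2 fell with FSL-1 (18.8%, median -0.04). Usp18, a brake on the type I interferon receptor, rose by 1.43 (adjusted p = 0.00169), while the adaptor Sh2b3 (-0.66) and Socs6 (-0.57) fell, each passing in 2 of 6 fits. With nutlin-3a 3 rose and 2 fell (31.2%, median 0.23). The phosphatase Ptpn1 rose by 0.77, Pias3, an inhibitor of Stat3, by 0.69 and the ubiquitin ligase Cbl by 0.82, while the phosphatase Ptpn6 had -0.57 and Usp18 -0.77. Each of these calls was lost in 3 or 4 of the 6 fits with 1 array left out.

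Genes that STATs are known to induce were counted as well, although most of them also answer other signals. Of 15 Stat3 response genes, 7 rose and 0 fell with FSL-1 (46.7%, median log2 change 0.75, 4 to 7 when 1 array was left out). Tnip3 rose by 2.27, Ier3 by 1.36, the kinase Pim1 by 1.24 and the factor Cebpb by 1.12, and these passed in all 6 fits. With nutlin-3a 3 of the 15 fell and 0 rose (20%, median -0.16, 1 or 2 when 1 array was left out): Nfil3 (-1.02), Pim1 (-0.91) and Cebpd (-0.64), which passed in 5, 6 and 0 of the 6 fits. Of 10 Stat5 response genes, which include Pim1, Osm and Bcl6 from the other lists, 6 rose and 0 fell with FSL-1 (60%, median 0.85, 4 to 6 when 1 array was left out). Gadd45g rose by 1.96 and Id2 by 1.04 (adjusted p = 0.0063, lost without FSL-1 replicate 1). With nutlin-3a 2 of the 10 fell, Pim1 and Osm (20%, median 0.01, 1 when any array was left out).

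Stat6 response genes went both ways. Of 17 genes, 2 rose and 2 fell with FSL-1 (23.5%, median log2 change -0.13). The factors Klf4 (1.71) and Egr2 (1.28) rose, and the nuclear receptor Pparg (-1.13) and Irf4 (-1.19) fell. With nutlin-3a Klf4 (-1.303) and Egr2 (-1.195) fell, as did Mrc1, the mannose receptor (-0.85), and the transglutaminase Tgm2 rose by 1.66. All of these passed in all 6 fits with 1 array left out except Mrc1 with nutlin-3a, which passed in 4. Arg1, a standard Stat6 target in mouse macrophages, was at 4.84, 5.07 and 5.04 (log2 group means), below the median of all genes, and did not pass.

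**Figure D4:**
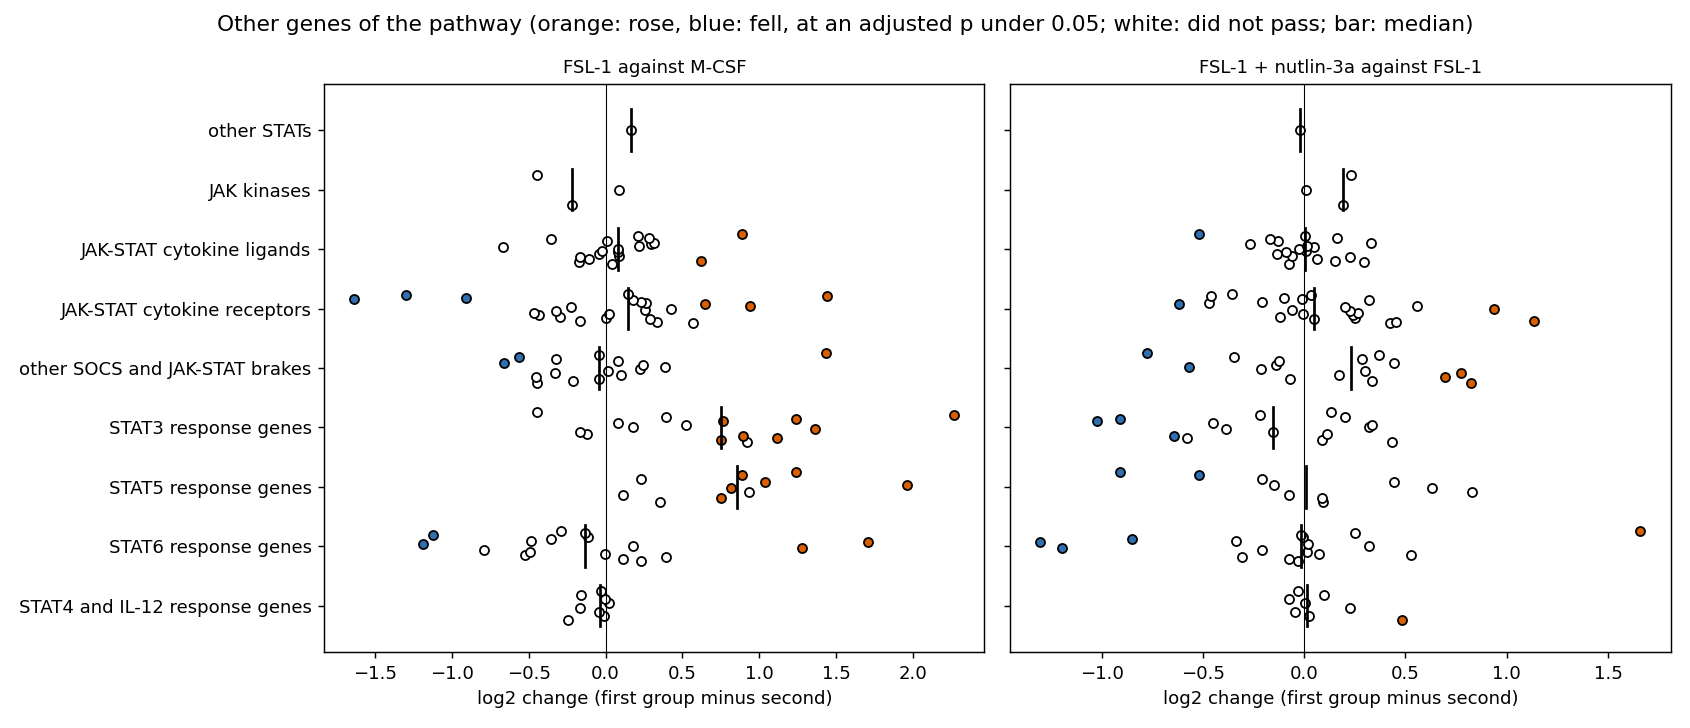
Log2 change of the measured genes of each list with FSL-1 (left) and with nutlin-3a added (right); orange points rose and blue points fell at an adjusted p under 0.05, white points did not pass, and bars mark each list's median. The medians of the Stat3 and Stat5 response lists were 0.75 and 0.85 with FSL-1 and -0.16 and 0.01 with nutlin-3a.

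With both agents against M-CSF, where 9.51% of all genes were called, the receptor list had 6 of 23 genes higher and 3 lower (39.1%, median log2 change 0.02, 4 to 6 higher when 1 array was left out). Il6ra (-1.65), Il6st (-1.01) and Lifr (-1.27) were lower, as they were with FSL-1 alone, and Il13ra1 (1.37), Il21r (1.496) and Il7r (0.98) were higher. Of the Stat3 list 6 of 15 were higher and 0 lower (40%, 2 to 5 when 1 array was left out), among them Tnip3 (2.05), and of the Stat5 list 5 of 10 (50%, 3 to 5 when 1 array was left out), among them Gadd45g (1.81) and Id2 (1.49). Of the Stat6 list (23.5%) 1 was higher, Tgm2 (1.37), and 3 were lower, Mrc1 (-1.21), Pparg (-1.14) and Irf4 (-1.17), while 3 to 5 were lower when 1 array was left out. Of the ligands 2 were higher, Ebi3 and Il23a, and 1 was lower, Il4 (15.8%), and these passed in 6, 3 and 0 of 6 fits with 1 array left out. Il23a had group means of 4.11 in M-CSF and 4.76 with both agents, and Il4 had 4.61 and 4.08 (log2). All of these means lay below the median of all genes, 5.51. Of the inhibitors Usp18 was higher and Socs6 lower (12.5%), passing in 2 and 6 of 6 fits. Of the Stat4 list 0 passed (limma, 0 at an unadjusted p under 0.05).

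For the 3 genes whose group means spanned more than 1 log2 unit, the nearest profiles over the 6 arrays were sought among genes above the median level, by the root mean square difference of values centred on each gene's mean. Nearest to Stat4 were Serpinb9b, a serine protease inhibitor (difference 0.127 log2), and Mmp13, a collagenase (0.172). Serpinb9b had group means of 5.39, 7.79 and 5.66, and Mmp13 had 5.69, 7.82 and 6.15 (log2, in the order M-CSF, FSL-1, FSL-1 + nutlin-3a). Nearest to Il12rb2 were Plxdc2, a transmembrane protein (0.164, group means 8.15, 6.18 and 7.72), and Slc9a7, a sodium/proton exchanger (0.228, group means 9.12, 7.45 and 8.33). Nearest to Socs3 were Tmem38b, a channel of internal membranes (0.0407), and Ptges, which makes prostaglandin E2 (0.0498), each of them higher in both FSL-1 groups than in M-CSF.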

How the data were processed

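Per the labels' protocols, RNA of sorted cells was biotin-labelled and run on Affymetrix arrays. Each deposited value is the log2 level of a probe set after RMA; the submitters' processing notes name Affymetrix Expression Console 1.4 as the authors' software. RMA equalises the arrays, so a shift common to the majority of genes could not be seen. Raw intensities and detection calls are not used here, so background is unknown, and the number of arrays limits precision; replicate arrays correlated at 0.993 to 0.995 across genes.

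Of 34390 probe sets, 23521 name 1 gene, which gave 22180 genes in the platform annotation; 0 symbols changed through the RefSeq table (GRCm38.p6). The limma 3.58.1 functions lmFit and eBayes (R 4.3.3) were run over all 6 arrays, with 3 residual and 4.88 prior degrees of freedom, and p-values were adjusted over all genes. Probe sets that were not kept were tested in a fit over all 23521. The test was tested on simulated data (20 runs, 200 changed genes each, FSL-1 against M-CSF).

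The genes and all lists were chosen with earlier results of these data known. Beside the 10 genes, the text names Stat2 and the JAK kinases, called genes of the lists, Arg1, interleukin-12 genes, marker genes and the 2 nearest profiles. Some of these genes were chosen after their values were seen. The plan was up to 4 called genes per list and comparison, those with the smallest p. In places the text names more or fewer. The test planned for Il12rb2 between the FSL-1 groups is not reported, because its selection used the FSL-1 arrays. The identity of the proteins was planned but is not analysed here. Alternatives are named in the closing section. No block was used, since the replicate numbers only name arrays. Differences between replicates correlated at -0.19, 0.02 and -0.02 between groups, which cannot settle whether arrays were paired. With 2 arrays per group, outlying samples were not sought. Figures were drawn with matplotlib 3.10.9.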

Additional observations from a re-analysis of the deposited data

How the results depend on the processing

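The counts of genes called (2, 1 and 1 in the order of the comparisons, over 9 genes) were the same under trend and robust eBayes, a repeated quantile normalization, arrays centred on their medians, a filter at the median of unnamed probe sets, the compared groups alone and array weights. When 1 array was left out, they ranged from 2 to 2, 1 to 1 and 1 to 1. With the replicate number as a block they were 2, 1 and 1, and also with the M-CSF numbers crossed, a pairing added after seeing the data; the block changed no other call of these genes. With each gene's probe sets averaged, the nutlin-3a count was 2, since Cish was called too. Among genes above the median of all genes, where fewer genes were tested, the count with both agents was 3, with Stat4 (adjusted p = 0.0463) and Socs1 (adjusted p = 0.0339) added. Socs3 with both agents did not pass at its other probe set (0.41).

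Signs turned for changes near 0 that did not pass. Socs2 with FSL-1 was 0.0104 with its probe sets averaged and 0.0768 at the other probe set, and with nutlin-3a -0.12 and -0.31. With both agents Socs2 was -0.11 and -0.23 in these settings, -0.0061 after quantile normalization and -0.012 after centring. Cish with both agents was -0.0299 with the mean and -0.11 at its other probe set. The cause was not tested.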
